A study of Mus musculus with 143 samples.

Results

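The comparison described here set the striatum of untreated wild-type mice at 10 months of age against that at 6 months. Its members were the 24 untreated wild-type libraries among the 143 of the study, chosen by their labels: 8 at 6 months and 16 at 10 months, the latter in 2 groups of 8. The study profiled wild-type mice and mice of the zQ175 Huntington's disease model, which were left untreated, were given a non-targeting siRNA (NTC) or were given HTT-10150, an siRNA against Htt. Its 3 strategies are named 2[4]6, 6[4]10 and 2+6[8]10 by the ages in months at treatment and at collection. The untreated animals carried the name of a strategy and its age at treatment as a label, but received no siRNA, so for them the name marks the cohort. Each group held 4 females and 4 males, 1 library per mouse, and the animals carried no knock-in allele. The whole striatum was sampled, so for every gene below a change in the number of cells of a type and a change in RNA per cell cannot be told apart.

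The striatum is the input nucleus of the basal ganglia. Most of its neurons are medium spiny neurons, of which those of the direct pathway carry the dopamine receptor Drd1 and the peptide gene Tac1, and those of the indirect pathway carry Drd2 and Penk. In rodent brain, ageing from youth to late life is known for a slow rise of complement and glial genes and for a decline in new oligodendrocytes. The labelled tissue was checked against its defining markers: Ppp1r1b, which encodes the phosphoprotein DARPP-32 of medium spiny neurons, ran from 2062 to 3024 CPM (counts scaled to a common library size) over the 24 libraries, and Drd1 from 213.7 to 309.3 CPM.

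Age went with cohort. The 6-month animals formed 1 cohort and the 10-month animals 2, so 6 and 10 months cannot be told apart from the cohorts by any single comparison. 3 comparisons were made within 1 fit: 6[4]10 against 2[4]6, 2+6[8]10 against 2[4]6, and 2+6[8]10 against 6[4]10, the last between animals of the same age. The first 2 share the 6-month libraries, so their results are not independent of each other. A gene was called at an edgeR quasi-likelihood adjusted p under 0.05 over the 15272 genes tested. Log2 fold changes carry ± SE, and levels are TMM-scaled CPM given as lowest, median and highest library of a group or as mean ± SD (n = 8 per group).

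Several properties of the libraries moved with the groups. Total counts ran from 16.55 M to 29.19 M in 2[4]6, from 16.92 M to 27.8 M in 6[4]10 and from 13.45 M to 20.77 M in 2+6[8]10. For each library the slope of gene levels on GC content was computed, as the log2 change per SD of GC content across genes. It was above 0 in all 8 libraries of 6[4]10 (0.00592 to 0.04395), below 0 in all 8 of 2+6[8]10 (-0.06165 to -0.01875), and on both sides of 0 in 2[4]6 (-0.04034 to 0.04892). The 2 groups of 10 months differed in it without overlap (exact two-sided permutation test, p = 0.000155, the smallest that 8 libraries against 8 can give, adjusted p = 0.00186 over 12 comparisons). The 2+6[8]10 group was also below 2[4]6 (exact permutation, adjusted p = 0.0149), and the mean of 6[4]10 lay above that of 2[4]6 by 0.0221 with an adjusted p of 0.154 in the same exact test. The share of counts in genes that do not encode protein was 1.822 ± 0.138% in 2[4]6, 2.095 ± 0.0812% in 6[4]10 and 2.042 ± 0.085% in 2+6[8]10 (exact permutation against 2[4]6, adjusted p = 0.00559 and 0.0107).

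**Figure D1:**
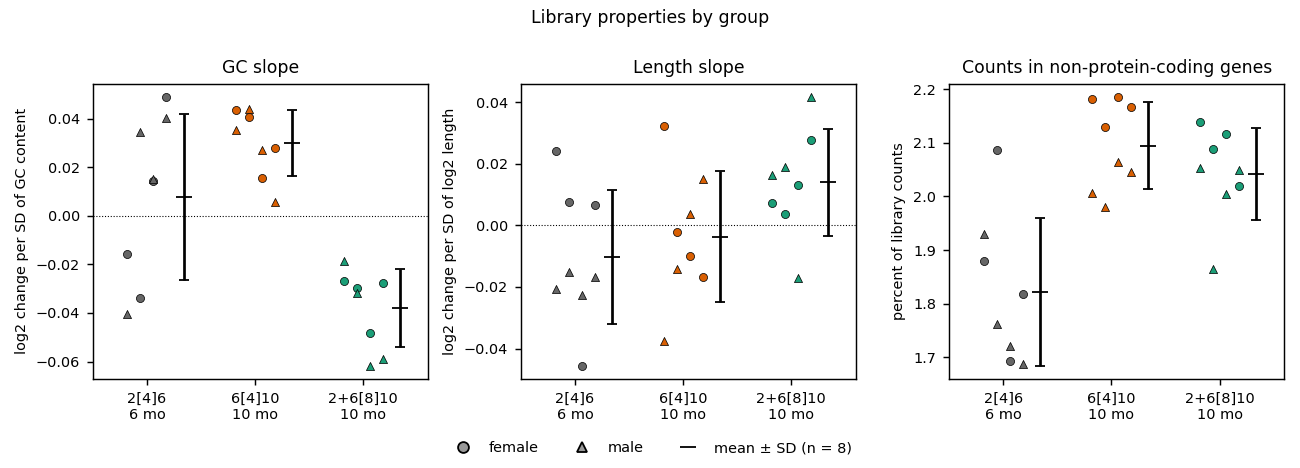
Properties of the 24 untreated wild-type libraries by group: slope of gene levels on GC content and on transcript length (log2 change per SD across genes) and the percent of counts in genes that do not encode protein. Points are libraries, circles female and triangles male, and bars are mean ± SD; the GC slopes of 6[4]10 lie above 0 and those of 2+6[8]10 below 0.

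RNA of neighbouring structures was uneven between libraries. Ttr, which encodes transthyretin and marks the choroid plexus, ran from 23.83 to 2439 CPM in 2[4]6, from 20.82 to 288.1 CPM in 6[4]10 and from 22.32 to 1342 CPM in 2+6[8]10. None of the 18 choroid plexus and ependyma markers tested was called in any comparison, and 1 of 10 cortical neuron markers was called, lower, in 2+6[8]10 against 2[4]6. The library 6[4]10 female 1 stood apart from its group, with the highest Gfap and Gpr17 and the lowest Drd1 and Tac1 of the 8.

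At 10 months against 6, the same direction was called in both cohorts for 534 genes that rose and 270 that fell. That is 3.5% and 1.77% of the genes tested, and 11 genes were called in opposite directions. Without 2[4]6 female 3, 409 rose and 106 fell in both, and 1545 genes in place of 2326 were called in 2+6[8]10 against 2[4]6. The number that fell was 52.6% of the 270 without 2[4]6 female 4, 60% without 2+6[8]10 female 3 and 65.6% without 6[4]10 female 2 or male 4. Changes were small: the median of the 2 cohorts' mean log2 fold change was 0.282 among the genes that rose and -0.141 among those that fell, and 64 genes rose and 2 fell by over 1.5-fold in that mean. Complement gene C4b, the nuclear noncoding RNAs Malat1 and Neat1 and the collagen gene Col6a3 were among those that rose, and the oligodendrocyte lineage genes Gpr17 and Rras2 among those that fell. Of the genes that rose, 84 (15.7%) do not encode protein, against 7.59% of all genes tested, and none of those that fell is noncoding. The single comparisons called more: 2668 genes (17.5%) in 6[4]10, of which 1501 were higher (9.83%) and 1167 lower (7.64%), and 2326 genes (15.2%) in 2+6[8]10, 1225 higher (8.02%) and 1101 lower (7.21%). The genes that rose in both were 35.6% and 43.6% of the calls upward in the 2 cohorts, and those that fell in both were 23.1% and 24.5% of the calls downward.

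The 2 groups of 10 months also differed from each other. With age the same, 2365 genes (15.5%) were called between 2+6[8]10 and 6[4]10, 1145 higher (7.5%) and 1220 lower (7.99%) in 2+6[8]10. Across 15180 genes with a known length, the Spearman correlation of the log2 fold change with GC content was 0.159 in 6[4]10 against 2[4]6, -0.355 in 2+6[8]10 against 2[4]6 and -0.541 between the groups of 10 months, given as a description since genes are not replicates. When each library's slopes on length and GC content were added to the fit as covariates, 2706, 30 and 97 genes were called in the 3 comparisons, and 19 rose and 4 fell in both cohorts. Of these, 17 and 3 were among the 534 and 270. The slopes were computed from the same libraries, those on GC content separate the 10-month groups completely while those on length overlap, and the median SE rose from 0.0607 to 0.0761 in 2+6[8]10 against 2[4]6. Of the 534 genes that rose, 531 kept a positive sign in both cohorts with the covariates, and of the 270 that fell, 267 kept a negative one. These genes were chosen by calls on the same libraries, so the kept signs were largely set by the choice and are a description only. Of all calls, 2668 of 2668 in 6[4]10 and 2209 of 2326 in 2+6[8]10 against 2[4]6 kept their sign. The median log2 fold change in 2+6[8]10 went from 0.279 to 0.171 among the first and from -0.139 to -0.0957 among the second.

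**Figure D2:**
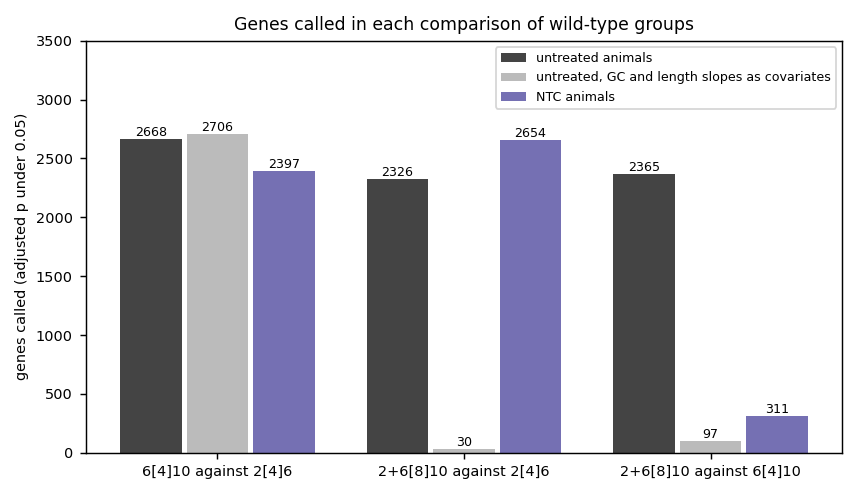
Genes called at an adjusted p under 0.05 (y axis, number of genes) in the 3 comparisons of wild-type groups (x axis), for untreated animals, the same with library slopes on GC content and length as covariates, and NTC animals. The covariates leave 2706 calls in 6[4]10 against 2[4]6 and 30 in 2+6[8]10 against 2[4]6.

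Of the genes described one by one in the next paragraphs, 47 were called in both cohorts. With the covariates the call in 2+6[8]10 against 2[4]6 was kept by 3 of them, C4b, Cyp3a13 and Gpr17, and the call in 6[4]10 by 42 (not by C3, Pcdh15, Bgn, Chrm3 and Xist).

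The complement gene C4b rose in both cohorts. The complement cascade tags cells and debris for uptake by phagocytes, and C4b, a component of its classical pathway made by glia, lies on chromosome 17 at 34728380 to 34743882 (GRCm38). It stood at 44.4, 47.8 and 53.7 CPM (lowest, median and highest) in 2[4]6, at 68.4, 78.7 and 104.2 CPM in 6[4]10 and at 60.6, 73.9 and 92.9 CPM in 2+6[8]10. All 16 libraries of 10 months lay above all 8 of 6 months, and the 2 groups of 10 months overlapped. The log2 fold change was 0.76 ± 0.09 in 6[4]10 (adjusted p = 4.8e-06) and 0.65 ± 0.09 in 2+6[8]10 (adjusted p = 0.00014), and the groups of 10 months differed by -0.11 ± 0.09 (adjusted p = 0.43). With the covariates it was 0.65 and 0.69 (adjusted p = 1.4e-05 and 0.0063). No alternative fit and no left-out library removed either call.

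C3, the central component on which all complement pathways converge, was also called in both. It ran from 1.248 to 2.14 CPM (median 1.62) in 2[4]6, from 0.995 to 4.91 CPM (median 3.54) in 6[4]10 and from 1.44 to 8.65 CPM (median 3.97) in 2+6[8]10. The groups overlapped, since 1 library of each 10-month group lay below the 6-month median. Its log2 fold change was 0.96 ± 0.32 (adjusted p = 0.043) and 1.27 ± 0.32 (adjusted p = 0.011). Leaving out any 1 of 12 of the 24 libraries ended the call in 6[4]10 (adjusted p up to 0.092), and so did the replicate block, the fit without a filter on low counts and the covariates.

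None of the other 13 complement genes of the list was called in both cohorts. C1qc, a chain of the C1q recognition molecule of microglia, rose in 6[4]10 by 0.14 ± 0.04 (adjusted p = 0.03) and was at -0.00 ± 0.04 in 2+6[8]10. In the complement list as a whole, 2 of 15 genes rose in both cohorts and none fell, where 3.5% of all genes tested rose in both, and the median log2 fold changes were 0.0596 and 0.0493. C4a, the near-identical neighbour of C4b on chromosome 17 (34809092 to 34823464) that the annotation holds as a transcript without protein, went from 1.69 ± 0.55 CPM to 2.91 ± 0.75 CPM in 6[4]10 and 1.82 ± 0.58 CPM in 2+6[8]10. Its log2 fold change was 0.78 ± 0.18 in 6[4]10 (adjusted p = 0.0028) and 0.12 ± 0.19 in 2+6[8]10 (adjusted p = 0.72), and in the animals given NTC it rose in both cohorts, by 1.255 and 1.053. How the authors' counting split reads between C4b and C4a is uncertain. The promoter of C3, as RefSeq gives it for GRCm38.p6 (chromosome 17, 57228087 to 57228386, minus strand, 250 bases before the start of the gene and 50 after it), is printed here because C3 was, beside C4b, the complement gene called in both cohorts.
C3: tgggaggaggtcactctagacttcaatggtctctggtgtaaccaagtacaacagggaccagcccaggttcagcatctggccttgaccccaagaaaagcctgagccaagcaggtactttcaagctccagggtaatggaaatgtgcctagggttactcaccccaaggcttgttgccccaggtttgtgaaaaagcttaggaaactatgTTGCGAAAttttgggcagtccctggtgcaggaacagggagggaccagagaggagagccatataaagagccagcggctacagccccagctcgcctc
The capitals mark the 1 match to TTGCNNAA, the core letters of C/EBP factors, searched on both strands, and 10.8% of the 32851 promoters of this length hold it. The letters of STAT factors, TTCNNNGAA, do not occur in this window and occur in 8.3% of promoters. A match of letters is a description, and nothing here measured the binding of a factor.

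In the lists of reactive astrocytes and activated microglia, Csf1 alone was called in both cohorts. Gfap, the intermediate filament of astrocytes, was at 112 ± 14 CPM in 2[4]6, 136 ± 30 CPM in 6[4]10 and 143 ± 37 CPM in 2+6[8]10, with differences from 6 months of 0.27 ± 0.15 and 0.35 ± 0.15 on the log2 scale (adjusted p = 0.21 and 0.11). None of the 14 reactive astrocyte genes tested was called in either cohort, at medians of 0.109 and 0.0604. Of all genes tested 17.5% and 15.2% were called in the 2 cohorts. Aif1, a cytoskeletal marker of microglia, was at 3.64 ± 0.47, 4.215 ± 0.60 and 3.798 ± 0.50 CPM and was not called. Csf1, the growth factor for microglia, rose in both, from 18.8 ± 1.8 CPM to 21.7 ± 1.6 and 23.2 ± 1.8 CPM (0.21 ± 0.06 and 0.30 ± 0.06), the 1 gene of 16 in the list of activated microglia to do so. Of all genes tested 3.5% rose in both. Among 15 genes of homeostatic microglia none was called in both cohorts, where 3.5% of all genes tested rose and 1.77% fell.

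**Figure D3:**
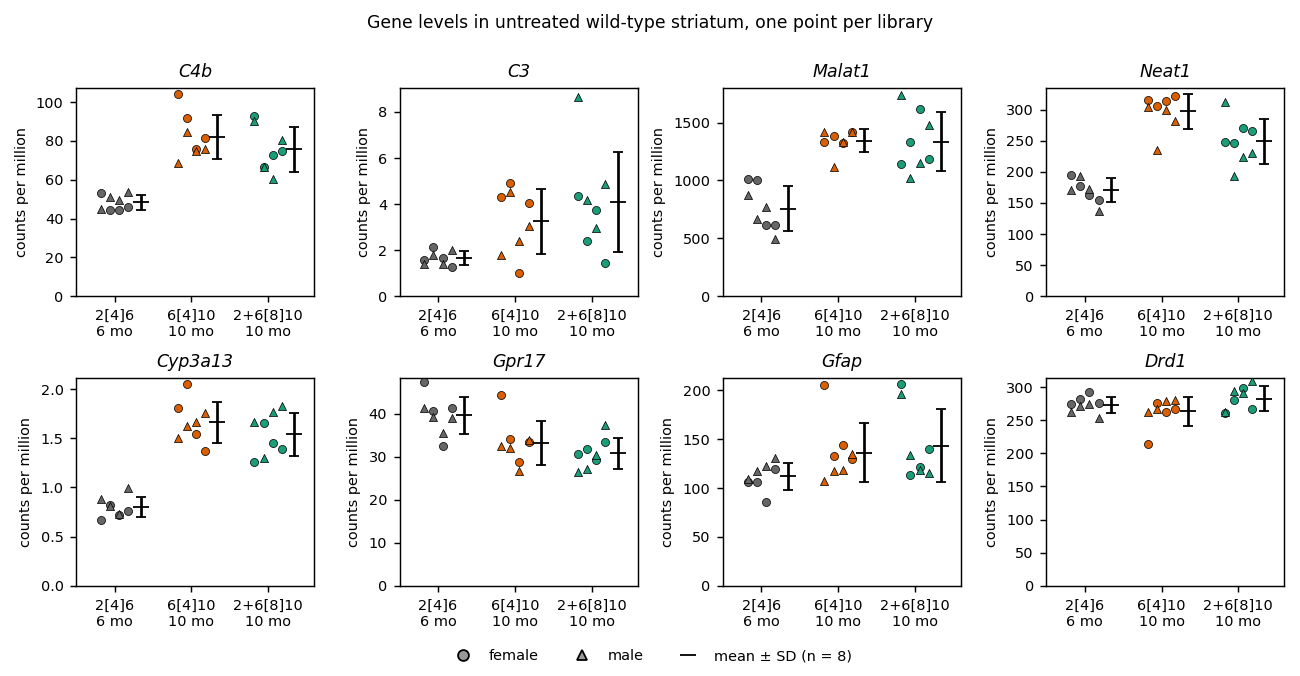
Levels of 8 genes (y axes, CPM, from 0) in untreated wild-type striatum by group, with 1 point per library (circles female, triangles male) and bars for mean ± SD, n = 8. C4b, Malat1 and Cyp3a13 do not overlap between 6 and 10 months, C3 and Gfap do, and Drd1 does not differ beyond its spread.

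Of the 41 gene lists, that of nuclear long noncoding RNAs had the most genes called higher in both cohorts. Of 10 tested, 8 rose in both cohorts and none fell, where 3.5% of all genes tested rose in both. The medians were 0.459 in 6[4]10 and 0.412 in 2+6[8]10. With the covariates 9 of the 10 were called higher in 6[4]10 and none in 2+6[8]10, at medians of 0.521 and 0.212. Of all 15272 genes, 1518 and 20 were called higher with the covariates in the 2 cohorts. Malat1, an abundant RNA of nuclear speckles (chromosome 19, 5795690 to 5802672), stood at 493.4, 718.6 and 1011.4 CPM (lowest, median and highest) in 2[4]6, at 1119, 1357 and 1422 CPM in 6[4]10 and at 1022, 1263 and 1736 CPM in 2+6[8]10. It did not overlap between 6 and 10 months and rose by 0.83 ± 0.14 and 0.82 ± 0.14 (adjusted p = 0.00031 and 0.0007). With the covariates its log2 fold change was 0.99 in 6[4]10 and 0.47 in 2+6[8]10, where the adjusted p became 0.196.

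Neat1, the scaffold of paraspeckles and a neighbour of Malat1, was at 170 ± 19 CPM in 2[4]6, 297 ± 28 CPM in 6[4]10 and 249 ± 36 CPM in 2+6[8]10 (0.80 ± 0.08 and 0.55 ± 0.08). Meg3, a maternally expressed RNA of the imprinted Dlk1-Dio3 region, was at 2312, 3832 and 3147 CPM on average (0.73 ± 0.09 and 0.45 ± 0.09). Mirg of the same region rose by 0.62 ± 0.08 and 0.28 ± 0.08. Snhg11, a neuronal host of small nucleolar RNAs, rose by 0.48 ± 0.08 and 0.40 ± 0.08. Neat1, Meg3 and Mirg were lower in 2+6[8]10 than in 6[4]10 (adjusted p = 0.036, 0.044 and 0.0039), and the first 2 of these calls were lost without any 1 of 11 and of 18 libraries. With the covariates none of them was called between the 10-month groups. The rises of these noncoding RNAs stood beside the share of noncoding counts and the GC slopes given above, and the part of those properties in them was not tested beyond the covariates.

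The oligodendrocyte lineage moved in both directions. Oligodendrocytes form from precursors throughout adult life, pass through a short stage marked by the receptor Gpr17, and then make myelin. Gpr17 (chromosome 18, 31942997 to 31949636) stood at 32.5, 39.9 and 47.3 CPM (lowest, median and highest) in 2[4]6, at 26.7, 33.1 and 44.4 CPM in 6[4]10 and at 26.4, 30.5 and 37.5 CPM in 2+6[8]10. The groups overlapped, and 6[4]10 female 1 was the highest of its group. Gpr17 fell by 0.26 ± 0.08 (adjusted p = 0.032) and 0.36 ± 0.08 (adjusted p = 0.0054) on the log2 scale. With the covariates its changes were -0.27 and -0.51 (adjusted p = 0.013 and 0.025). In 6[4]10 the call was lost when any 1 of 11 libraries was left out (adjusted p up to 0.080), without the filter on low counts and in the fit of only the groups compared.

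Rras2 and Fyn, a Ras family GTPase and a kinase of early myelination, also fell in both. So 3 of 11 genes of newly formed oligodendrocytes fell and none rose, where 1.77% of all genes tested fell in both. The list's median log2 fold changes were -0.0527 and -0.119. Its summed level was not lower at 10 months, with medians of 509.8, 520 and 525.2 CPM in 2[4]6, 6[4]10 and 2+6[8]10. In NTC animals 1 of the 11 fell in both cohorts, where 2.19% of all genes did. With the covariates 3 of the 11 were called lower in 6[4]10 and 1 in 2+6[8]10. Rras2 went from 4.15 ± 0.54 CPM to 2.96 ± 0.44 and 3.13 ± 0.69 CPM (-0.49 ± 0.12 and -0.41 ± 0.12), and Fyn from 108 ± 4.5 CPM to 101.7 ± 3.1 and 99.8 ± 3.1 CPM. The call of Fyn in 6[4]10 was lost without 2[4]6 female 3 or without 6[4]10 male 3 (adjusted p up to 0.075). Of 20 genes of mature oligodendrocytes and myelin, 3 rose in both and none fell, against 3.5% of all genes tested that rose. With the covariates 3 of the 20 were called higher in 6[4]10 and none in 2+6[8]10. Hapln2, a link protein of the node of Ranvier, rose from 45.7 ± 5.7 CPM to 59.3 ± 7.2 and 53.7 ± 3.7 CPM. Aspa, the enzyme that splits N-acetylaspartate, rose by 0.21 ± 0.06 and 0.29 ± 0.06, and the lipocalin gene Apod by 0.21 ± 0.05 and 0.28 ± 0.05. The call of Hapln2 in 2+6[8]10 (adjusted p = 0.032) was lost when any 1 of 7 libraries was left out. Among 17 genes of oligodendrocyte precursors, 1 rose in both, beside the 3.5% of all genes tested. It was Pcdh15, by 0.31 ± 0.11 and 0.51 ± 0.11, with the call in 6[4]10 (adjusted p = 0.044) lost without any 1 of 13 libraries.

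Several of the larger fold changes were in genes of low level. Cyp3a13, a cytochrome P450 gene (chromosome 5, 137892932 to 137921619), stood at 0.671 to 0.998 CPM in 2[4]6, at 1.37 to 2.05 CPM in 6[4]10 and at 1.26 to 1.83 CPM in 2+6[8]10, without overlap between the ages. It rose by 1.05 ± 0.13 and 0.94 ± 0.14 on the log2 scale (adjusted p = 2.1e-06 and 6.2e-05), and these changes held their calls in every alternative fit and with each library left out. Muc3a, a mucin gene, went from 3.99 ± 0.67 CPM to 9.37 ± 1.7 and 6.06 ± 1.4 CPM, and differed between the 10-month groups as well (-0.62 ± 0.12, adjusted p = 0.001). That difference was not called with the covariates (adjusted p = 0.178), and in NTC animals Muc3a rose by 1.36 and 1.40. Tmc4, of the transmembrane channel-like family, rose by 1.06 ± 0.14 and 0.57 ± 0.15. Syne4, which links the nuclear envelope to the cytoskeleton, rose by 1.10 ± 0.14 and 0.50 ± 0.15, the latter call being lost without 2[4]6 female 3, 2[4]6 male 4 or 2+6[8]10 male 4 (adjusted p up to 0.060). Fam228a rose by 0.88 and 0.72, Slc39a2, a zinc transporter gene, by 0.89 and 0.48, and Dgat2l6 by 0.79 and 0.76. The antisense transcripts Prox2os and Rapgef4os3 were called higher in both, and since the strand of the counting is not stated, reads of an antisense gene and of its partner cannot be told apart. The call of Rapgef4os3 in 2+6[8]10 was lost without 2+6[8]10 male 1 (adjusted p = 0.0518).

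Col6a3, a chain of collagen VI, stood at 2.21 to 2.92 CPM in 2[4]6, at 3.09 to 4.70 CPM in 6[4]10 and at 3.04 to 7.76 CPM in 2+6[8]10, and did not overlap between the ages. It rose by 0.60 ± 0.14 and 0.84 ± 0.14. Col6a1, another chain of the same collagen, rose in 6[4]10 from 72.6 ± 10 CPM to 112 ± 12 CPM (0.63 ± 0.08) and was at 81.1 ± 11 CPM in 2+6[8]10 (0.16 ± 0.09, adjusted p = 0.2), and the difference between the 10-month groups passed the test (-0.46 ± 0.08, adjusted p = 0.0011). With the covariates that difference was not called (adjusted p = 0.199). Bgn, the proteoglycan biglycan, fell by 0.30 ± 0.09 and 0.36 ± 0.09 on the log2 scale. The call of Bgn in 6[4]10 was lost without 2[4]6 female 2, in which it was highest (adjusted p = 0.066).

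2 of the genes that the naming rule selected had values that were uneven between animals or between the sexes. Arhgap30, which encodes a GTPase-activating protein, was at 0.315 to 1.246 CPM in 2[4]6, while the 10-month libraries ran from 0.320 to 4.56 CPM in 6[4]10 and from 0.266 to 4.88 CPM in 2+6[8]10. 4 libraries of 6[4]10 were above 4 CPM and the other 4 at 1.38 CPM or below. Its call in 6[4]10 (adjusted p = 0.023) was lost without 6[4]10 female 2 (adjusted p = 0.0621), and that in 2+6[8]10 (adjusted p = 0.044) without any 1 of 11 libraries. Xist, which silences 1 X chromosome in females, was called higher in both (0.68 ± 0.23 and 1.01 ± 0.23), with the call in 6[4]10 (adjusted p = 0.046) lost without any 1 of 19 libraries. In females it ran from 545.2 to 659.5 CPM in 2[4]6, from 895.4 to 965.8 CPM in 6[4]10 and from 946.7 to 1301 CPM in 2+6[8]10, without overlap between ages, and in males it did not exceed 9.363 CPM.

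The genes with the largest falls called in both cohorts included Chrm3, Cnih3, Gabra5, Lingo1, Apcdd1 and Mycn. Chrm3, a muscarinic acetylcholine receptor gene, went from 17.8 ± 4.2 CPM to 12.6 ± 2.6 and 13.1 ± 2.2 CPM (-0.50 ± 0.14 and -0.45 ± 0.14). Cnih3, an auxiliary subunit gene of AMPA receptors, went from 11.9 ± 2.4 CPM to 7.67 ± 1.8 and 8.76 ± 2.0 CPM, and its call in 2+6[8]10 (adjusted p = 0.049) was lost without any 1 of 20 libraries. Gabra5, a subunit gene of GABA-A receptors, went from 22.6 ± 3.0 CPM to 18.4 ± 1.9 and 18.3 ± 2.1 CPM. Lingo1, a membrane protein gene of neurons and oligodendrocytes, fell by 0.27 ± 0.06 and 0.28 ± 0.06 on the log2 scale. The Wnt inhibitor gene Apcdd1 fell by 0.33 ± 0.08 and 0.36 ± 0.08, and the transcription factor gene Mycn by 0.27 ± 0.08 and 0.40 ± 0.08. For Mycn the call in 6[4]10 was lost without 2[4]6 female 4 or 6[4]10 male 4 (adjusted p up to 0.060), and for Chrm3 the call in 2+6[8]10 was lost without any 1 of 6 libraries. In the fit of all 143 libraries Chrm3, Cnih3, Gabra5 and Lingo1 lost both calls and Mycn that in 6[4]10, while Apcdd1 kept both. The part of cortical tissue in these falls was not tested.

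Of the genes of energy supply and protein turnover, a minority fell in both cohorts, by small amounts. Of 31 genes of the respiratory chain and ATP synthase encoded in the nucleus, 11 fell in 6[4]10, 9 in 2+6[8]10 and 4 in both (1.77% of all genes tested fell in both), and none rose in either. For comparison, 7.64% and 7.21% of all genes tested fell in the 2 cohorts. Atp5b, the catalytic beta subunit of ATP synthase, went from 1045 ± 34 CPM to 979 ± 28 and 976 ± 21 CPM (-0.09 ± 0.03 and -0.10 ± 0.03), and its call in 6[4]10 was lost without 2[4]6 female 3 (adjusted p = 0.057) and in the fit of only the groups compared. Atp5a1, Sdhb and Cyc1 were the others. Leaving out any 1 of 10 libraries ended the call of Sdhb in 6[4]10, any 1 of 19 that of Atp5a1 in 2+6[8]10, and any 1 of 3 and of 9 those of Cyc1 in the respective cohorts. With the covariates 10 of the 31 fell in 6[4]10 and none was called in 2+6[8]10.

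Of 22 proteasome genes, Psma5 and Psma1 fell in both (with the covariates 6 of the 22 were called lower in 6[4]10 and none in 2+6[8]10), Psma5 from 42.0 ± 2.0 CPM to 38.6 ± 1.2 and 37.6 ± 1.1 CPM. Of 19 genes of the integrated stress response, 3 fell in both and none rose in both: Asns, which makes asparagine, and the tRNA charging enzymes Gars and Aars. Of all genes tested 1.77% fell in both, and with the covariates 4 of the 19 were called lower in 6[4]10 and none in 2+6[8]10. In 6[4]10 the call of Gars was lost without any 1 of 10 libraries and that of Aars without any 1 of 20, and the calls of Psma1 without 2[4]6 female 3 in 6[4]10 and any 1 of 10 libraries in 2+6[8]10. Asns went from 78.6 ± 2.9 CPM to 71.7 ± 3.7 and 71.3 ± 3.9 CPM. Ctsb, a lysosomal protease gene, fell by 0.12 ± 0.03 and 0.10 ± 0.03 on the log2 scale. Fkbp5, a target of the glucocorticoid receptor, fell by 0.13 ± 0.04 and 0.17 ± 0.04. Its call in 6[4]10 was lost without 2[4]6 male 1 or 6[4]10 male 1. Per3, of the circadian clock, rose by 0.31 ± 0.08 and 0.27 ± 0.08, the 1 clock gene of 19 called in both, where 3.5% of all genes tested rose in both.

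Genes that define striatal neurons were not called in both cohorts of untreated animals. None of 25 medium spiny neuron genes, 10 direct pathway genes, 7 indirect pathway genes and 17 interneuron genes passed in both. Of all genes tested 3.5% rose and 1.77% fell in both. In single cohorts, 4 of the 25 were lower and 1 higher in 6[4]10, and 1 of the 25 and 2 of the 7 were lower in 2+6[8]10. Of the 10 direct pathway genes, 1 was lower in each cohort. The shares of all genes lower in the 2 cohorts were 7.64% and 7.21%. In NTC animals 10 of the 25 were lower and 1 higher in 6[4]10, where 6.54% of all genes were lower. There 3 of the 10 and 4 of the 7 were lower as well. In 2+6[8]10, 3 of the 25 and 4 of the 7 were lower and 1 of the 25 was higher, where 6.68% of all genes were lower. In both NTC cohorts 2 of the 25, 3 of the 7 and 1 of the 17 fell and 1 of the 25 rose. Of all genes, 2.19% fell and 6.27% rose in both. Drd1 was at 273 ± 12, 263 ± 21 and 283 ± 18 CPM in 2[4]6, 6[4]10 and 2+6[8]10, and Tac1 at 188.8 ± 20, 185 ± 17 and 190 ± 18 CPM. Drd2 was at 182 ± 17, 171 ± 9.9 and 166 ± 14 CPM. Penk, which encodes enkephalin, went from a mean of 1219 CPM to 1141 and 1061 CPM, and fell in 2+6[8]10 (-0.20 ± 0.05, adjusted p = 0.012) without a call in 6[4]10 (-0.10 ± 0.05, adjusted p = 0.22). Ppp1r1b gave -0.09 ± 0.06 and -0.17 ± 0.06 and was not called. Htt itself was at 152 ± 9.3, 153.5 ± 3.8 and 158 ± 6.4 CPM, and was not called (adjusted p = 0.77 and 0.22). Syp, the synaptic vesicle gene synaptophysin, was the 1 of 23 synapse genes to fall in both (-0.13 ± 0.04 in each), where 1.77% of all genes tested did. Its calls were lost without any 1 of 12 libraries in 6[4]10 and 18 in 2+6[8]10.

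**Figure D4:**
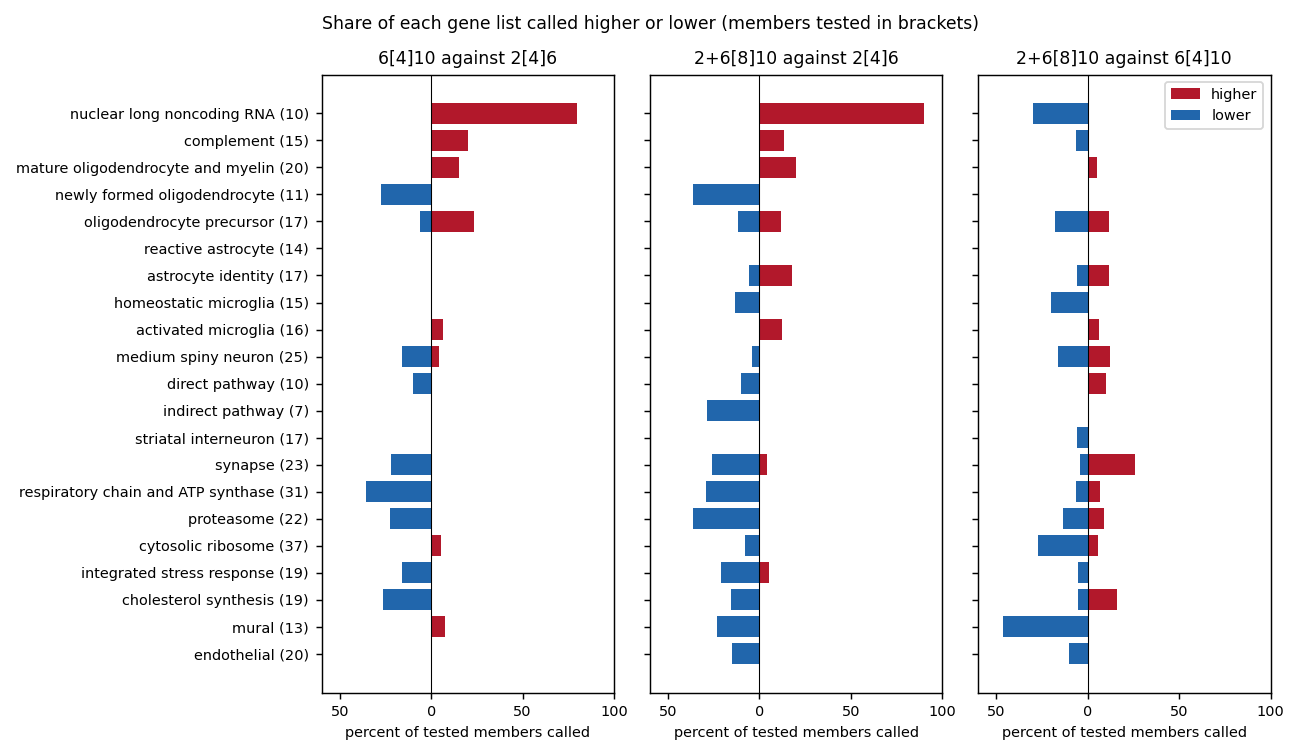
Share of the tested members of 21 gene lists called higher (red, right) or lower (blue, left) in the 3 comparisons (x axes, percent of tested members; numbers tested in brackets). Nuclear long noncoding RNAs were called higher in both 10-month groups (8 and 9 of 10, against 9.83% and 8.02% of all genes tested). Of 13 mural cell genes, 6 were lower in 2+6[8]10 than in 6[4]10, against 7.99% of all genes tested.

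The genes that differed between the 2 groups of 10 months included those of vessel walls. Mural cells wrap small vessels, and 6 of their 13 marker genes were lower in 2+6[8]10 than in 6[4]10 and none higher, against 7.99% of all genes tested. Myl9, a myosin light chain, was at 12.3 ± 1.6 CPM in 6[4]10 and 9.21 ± 0.38 CPM in 2+6[8]10 (-0.42 ± 0.07, adjusted p = 0.00041), and at 11.5 ± 1.2 CPM at 6 months. Tagln and Acta2, contractile proteins of smooth muscle, were each lower by 0.48 ± 0.11 on the log2 scale. Of 37 genes of the cytosolic ribosome, 10 were lower and 2 higher in 2+6[8]10. With the covariates none of these mural or ribosomal genes was called between the 10-month groups, and Tagln took the opposite sign (0.0851).

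Of the genes higher in 2+6[8]10 than in 6[4]10, Wdr89 went in opposite directions from 6 months. It stood at 7.65 ± 1.3 CPM in 2[4]6, 5.86 ± 0.49 CPM in 6[4]10 and 9.49 ± 0.94 CPM in 2+6[8]10, falling by 0.38 ± 0.09 in the first and rising by 0.31 ± 0.09 in the second. Gucy1a2, a subunit gene of the receptor for nitric oxide, was at 12.9 ± 1.5, 11.8 ± 2.3 and 17.5 ± 2.7 CPM in the same order. Rpl37rt, a retrotransposed copy of a ribosomal protein gene whose reads may be shared with its parent, was higher in 2+6[8]10 by 1.15 ± 0.21. Grin1os, antisense to the NMDA receptor gene Grin1, was at 6.44 ± 1.5, 13.1 ± 1.8 and 8.04 ± 1.4 CPM, so that the 2+6[8]10 group of untreated animals lay nearer to 6 months. In NTC animals Grin1os was called higher in both cohorts, by 1.125 in 6[4]10 and 1.083 in 2+6[8]10. Rn7s1 and Rn7s2 held identical values in every library and were also lower in 2+6[8]10 (-0.74), as 1 measurement of near-identical genes. With the covariates Wdr89, Gucy1a2, Rpl37rt, Grin1os, Rn7s1 and Rn7s2 were not called between the 10-month groups (adjusted p from 0.0637 for Wdr89 to 0.385 for Rpl37rt).

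The wild-type animals given NTC formed the same 3 cohorts and took no part in the comparisons above, so they give the same contrasts in other mice. They had received the control siRNA, and the single and repeated dosing goes with the cohort. Among 15365 genes tested, 2397 (15.6%) were called in 6[4]10 against 2[4]6 (9.06% higher, 6.54% lower), 2654 (17.3%) in 2+6[8]10 against 2[4]6 (10.6% higher, 6.68% lower) and 311 (2.02%) between the 10-month groups (1.28% higher, 0.748% lower). In both cohorts 964 rose (6.27%) and 336 fell (2.19%). Of the 534 genes that rose in untreated animals, 529 had a positive sign in both NTC contrasts and 376 were called, which is 70.4% of the untreated list and 39% of the NTC list. Of the 270 that fell, 264 had a negative sign in both and 90 were called (33.3% and 26.8%). None was called in both NTC contrasts the other way. The GC slopes of the NTC libraries ran from -0.06641 to 0.07181 in 2[4]6, from 0.003218 to 0.04343 in 6[4]10 and from -0.05658 to 0.01991 in 2+6[8]10, so the order of the cohorts' means was the same.

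C4b rose in NTC animals by 0.65 and 0.83 (adjusted p = 1.0e-06 and 7.0e-08), and Cyp3a13 by 0.82 and 0.99. Malat1 rose by 0.66 and 1.18, and Neat1 by 0.82 and 0.69. Gfap, not called in untreated animals, rose in NTC animals by 0.37 and 0.47 (adjusted p = 0.0092 and 0.0015). C3 was at 0.13 in 6[4]10 (adjusted p = 0.69) and rose by 1.05 in 2+6[8]10. Gpr17 was at -0.15 in 6[4]10 (adjusted p = 0.22) and fell by 0.35 in 2+6[8]10. Penk and Drd2 fell in both NTC cohorts, Penk by 0.19 and 0.24 and Drd2 by 0.15 and 0.20. Arhgap30 had the opposite sign (-0.29 and -0.73, not called). When the NTC and untreated animals were fitted together, no gene passed for a difference between them in any of the 3 contrasts. In edgeR 0 of 15644 had an adjusted p under 0.05, and 426, 1032 and 1096 had an unadjusted p under 0.05. The Gfap call in NTC animals alone was therefore not shown to be a difference. This test goes gene by gene. It cannot decide whether the number of calls between the 10-month groups differed between NTC and untreated animals.

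**Figure D5:**
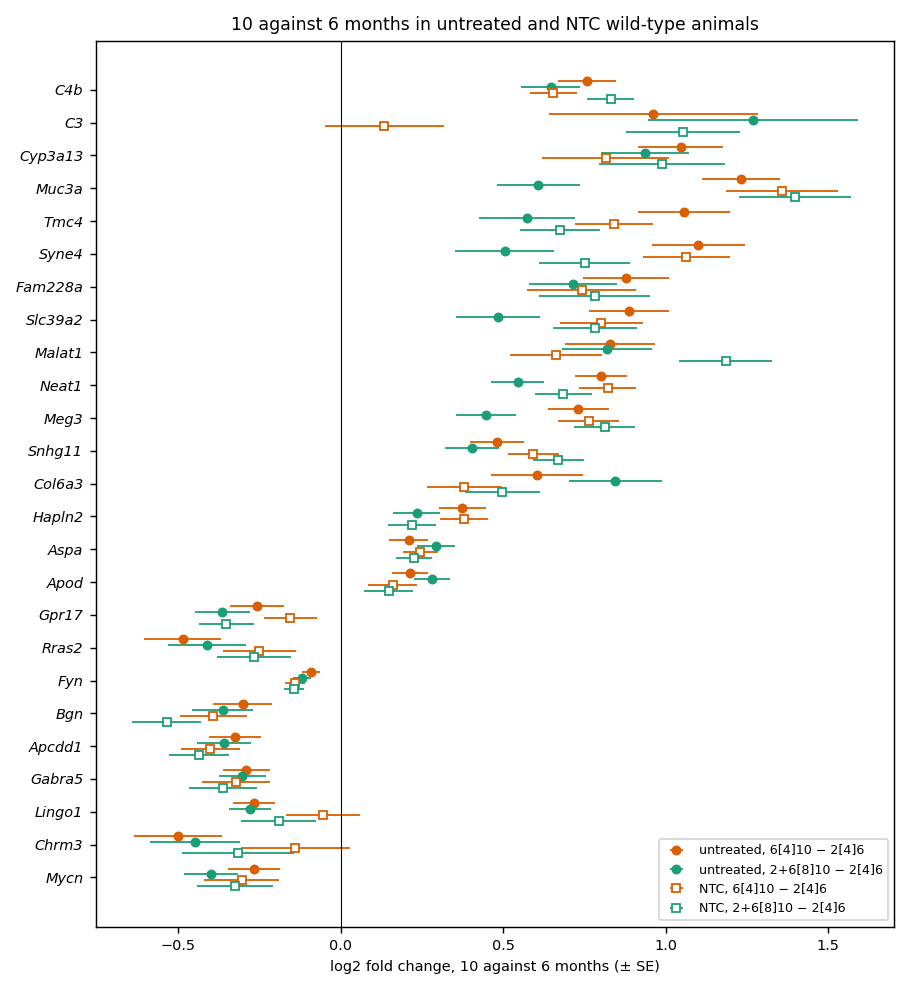
Log2 fold change of 10 against 6 months (x axis, ± SE) for 25 genes in untreated (filled circles) and NTC (open squares) wild-type animals, 6[4]10 in orange and 2+6[8]10 in green. C4b, Cyp3a13, Malat1 and Neat1 lie to the right of 0 in all 4 contrasts, and C3 lies near 0 in 1 of them.

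With length and GC slopes in the fit, 23 genes were called in both cohorts. Named here after their values were seen, those also among the 534 that rose were C4b, Cyp3a13, Tnip2, Thpo, Sec14l3, Hdx, Macf1, Mtf2, Ubn2, Luc7l2, Zdhhc20, Map3k2, Ppp4r1l-ps and 4 predicted genes, and those among the 270 that fell were Gpr17, Gde1 and Kpna2. Tnip2, an inhibitor of NF-kappaB signalling, went from 10.1 CPM to 14.01 and 12.5 CPM on average and kept log2 fold changes of 0.44 and 0.45 with the covariates. Hdx, a homeobox gene, went from 11.1 CPM to 14.3 and 15.4 CPM. Luc7l2, a splicing factor gene, went from 161.6 CPM to 191.2 and 198.7 CPM. Of the 19 genes higher with the covariates, 14 had been called higher in both NTC cohorts without them, and of the 4 lower, none.

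Groups without any overlap between 6 months and both 10-month groups were seen for 36 of the 534 genes and 8 of the 270. Those lists were chosen by calls on the same libraries, and the share of all tested genes without overlap in both comparisons was not computed. In the single comparisons 2.72% and 1.3% of all tested genes did not overlap. Beside C4b, Malat1, Cyp3a13 and Col6a3 the genes without overlap included, named after their values were seen, the p53 regulator Mdm4, at 67.9 to 91.6 CPM in 2[4]6 and at 91.9 to 108 and 93.5 to 113.1 CPM at 10 months, the DNA demethylation enzyme Tet2 and the insulin receptor gene Insr. Mdm4 and Tet2 were also called higher in both NTC cohorts, but Insr was not (0.038 in 6[4]10 and 0.175 in 2+6[8]10). Ppp2r2c, a regulatory subunit gene of a protein phosphatase, was lower without overlap, at 598 to 647 CPM in 2[4]6 and at 536 to 567 and 556 to 593 CPM at 10 months.

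The sexes were compared within each contrast. No gene passed for a sex difference of the change in edgeR (0 of 15272 in each, with 1293, 713 and 1026 under 0.05 before adjustment). DESeq2 gave 2, 1 and 2 such genes. Of the 534 genes that rose, 533 had a positive sign in females and in males in both cohorts, and of the 270 that fell, 269 had a negative sign in all of these. Those genes were chosen by calls on the same females and males, so this agreement was largely set by the choice and is a description only. The labels name each sample as 1 mouse, and p values here measure the spread between mice of a cohort.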

How the data were processed

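Striatal polyA RNA was sequenced in 143 libraries, 1 per mouse, of which the 24 untreated wild-type ones were compared. The authors deposited RSEM expected counts on GRCm38, per the submitters' processing notes; for the aligner, annotation and RSEM version the entry is: not given in the sources used here. The deposited expected counts were rounded to whole numbers (78.2% of nonzero values were whole already). A deposited table of FPKM was not used. Of 41135 entries, 7 name no gene and were left out (5.91e-06% of counts). Symbols, positions, length and GC content came from GENCODE M21.

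Genes passing filterByExpr were fitted with TMM scaling in edgeR 4.0.16 (quasi-likelihood F test, robust, R 4.3.3) on group and sex, and p-values were adjusted by Benjamini-Hochberg over all 15272. The procedure was tested on simulated data. Slopes per library were fitted to log2 CPM (prior count 2) over 15180 genes. The alternatives were DESeq2 1.42.0 and its size factors, no filter, no sex term, only the groups compared, all 143 libraries, a replicate block, slopes as covariates, each library left out and, chosen after seeing the data, NTC animals. Counts of 13.45 M to 29.19 M per library bound the precision for low genes.

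Genes named were the 15 with the largest mean change in each direction called in both cohorts, up to 5 such members of each list, the 10 largest in each direction between the 10-month groups with up to 4 members of each list, and 9 genes always given. A subset of these is described, and some are not reported here. Predicted genes were counted and not named. The 41 gene lists (711 of 727 symbols in the table) and the comparison itself were chosen with earlier results of these data known.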

Additional observations from a re-analysis of the deposited data

Results flagged for a closer look

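Over 171 groups of 8 values examined, 20 held 1 library far from the other 7 (11.7%, where chance gives about 1 in 20). They came from 10 libraries.

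In 6[4]10 female 1, Gfap was high at 205 CPM (others 107.7 to 143.6), Gpr17 at 44.35 (26.65 to 34.04) and Pcdh15 at 10.36 (5.08 to 7.407), while Drd1 was low at 213.7 CPM (261.9 to 281.1) and Tac1 at 147.8 (179.6 to 198). In 6[4]10 male 2, Malat1 was low at 1119 CPM (1324 to 1422) and Neat1 at 235.1 (282.1 to 322.5), and Myl9 was high at 15.62 (10.67 to 12.98). In 2[4]6 male 4, Mirg was low at 11.34 CPM (15.69 to 18.17) and Grin1os at 3.151 (6.012 to 7.718). In 2[4]6 female 2, Bgn was high at 11.94 CPM (7.087 to 9.036) and Wdr89 at 10.44 (6.103 to 8.146). In 2+6[8]10 male 1, Wdr89 was high at 11.52 CPM (8.479 to 9.85) and Asns was low at 63.3 (70.1 to 75.78). Hapln2 was high in 2[4]6 male 2, at 58.08 CPM (38.98 to 47.31), Arhgap30 in 2[4]6 female 1, at 1.246 (0.3151 to 0.6842), and Col6a3 in 2+6[8]10 female 4, at 7.761 (3.041 to 5.171).

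Total counts were high in 2[4]6 female 4, at 29.19 M (others 16.55 M to 22.13 M), in 6[4]10 male 1, at 27.8 M (16.92 M to 18.8 M), and in 2+6[8]10 female 4, at 20.77 M (13.45 M to 15.2 M).

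DESeq2 called a difference between the sexes in 5 cases, none of them called by edgeR. The male minus female difference in log2 fold change was -1.013 for Etnppl in 6[4]10 against 2[4]6 (adjusted p = 0.0394; 0.7214 in females, -0.2899 in males) and -1.134 in 2+6[8]10 against 2[4]6 (adjusted p = 0.00573; 0.9044 and -0.2251). It was 0.483 for Fstl4 in 6[4]10 against 2[4]6 (adjusted p = 0.0382; -0.4185 and 0.06546). Between the 10-month groups it was 1.946 for Col12a1 (adjusted p = 0.00664; -0.9911 and 0.9606) and -0.3076 for Tef (adjusted p = 0.0027; 0.1747 and -0.134).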

How the results depend on the processing

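Age and cohort cannot be told apart, and depth limits genes under about 1 CPM. With slopes on length and GC content as covariates, 30 genes were called in 2+6[8]10 against 2[4]6, 97 between the 10-month groups, and 23 in both cohorts in the same direction (19 higher, 4 lower). With all 143 libraries in the fit the counts were 1234, 1481 and 514 (276 higher, 238 lower). Genes lower in both came to 61.5% of the 270 without the filter and 62.2% with only the groups compared. In NTC animals 311 genes were called between the 10-month groups. The split in 6[4]10 against 2[4]6 was 1470 higher and 743 lower (2213) with only the groups compared, and 1252 and 1415 (2667) with all 143 libraries. DESeq2 called sex differences for 2, 1 and 2 genes.

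Leaving out 1 library gave 2136 to 2677 calls in 6[4]10 against 2[4]6, 1545 to 2962 in 2+6[8]10 against 2[4]6 (1545 without 2[4]6 female 3), 1768 to 2580 between the 10-month groups, and 515 to 1055 in both cohorts, of which 409 to 694 higher and 106 to 361 lower. The lowest of these, 515, was without 2[4]6 female 3. DESeq2 called 563 higher and 331 lower in both, its size factors 533 and 265, and the fit without sex 515 and 263.

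Replicate numbers did not pair the samples: 3 of 24 same-numbered pairs correlated over 0.1, and 6 of 24 libraries correlated best with their own number. With the replicate block 2565 genes were called in 6[4]10 against 2[4]6, and 524 rose and 246 fell in both (490 and 227 shared with the fit without it); in NTC animals 935 and 310.

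Of 219 single-gene results, 52 kept direction and call with the covariates, 10 kept direction and were called in neither fit, 136 lost the call, 1 gained it and 20 took the opposite sign. Reversed with covariates were Tac1 (0.0518 in 6[4]10, -0.00871 in 2+6[8]10), and in 2+6[8]10 against 2[4]6 Drd2 (0.00114), Ppp1r1b (0.0552) and Cyc1 (0.00732). Between the 10-month groups these were Ctsz 0.00802, Rplp0 0.00865, Cd9 -0.0295, Tagln 0.0851, Uqcrq 0.0104, Grn 0.00305, Slc18a3 0.0149, Psmb5 0.123, Srebf2 0.0254, Trem2 0.0537, Rps14 0.0945, Ndufv1 0.0195, Lamp2 -0.0698, mt-Atp8 -0.196 and mt-Nd6 -0.0314. With all 143 libraries 140 of the 219 kept direction and call status, 77 lost the call and 2 took the opposite sign. The last were Tac1 (-0.0423) and Drd1 (-0.0233) in 2+6[8]10. Apod, Bgn and Fkbp5 were among those that lost both calls against 6 months in that fit, and Aspa and Csf1 lost the call in 6[4]10. With 1 library left out, Tac1 ran from -0.0604 to 0.00757 in 6[4]10 (the highest without 6[4]10 female 1) and from -0.0209 to 0.0353 in 2+6[8]10. The cause was not tested.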
